A study of Homo sapiens with 4 samples.

Results

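The human mitochondrial genome carries 37 genes, and the count table listed all 37 of them on chromosome MT, of 58233 genes in all. They were taken by chromosome alone, though earlier results of these data were known when they were chosen. They comprised 13 mRNAs, 2 rRNAs and 22 tRNAs. The cells were MCF10AT, human mammary epithelial cells that carry an oncogenic HRAS. RNA was read from 2 libraries with the label Bromo+/- and 2 with the label Non-target control. The labels do not say what Bromo stands for. All 4 cultures grew in DMEM/F12 with donor horse serum, EGF, insulin, hydrocortisone, cholera toxin and the antibiotics penicillin and streptomycin, and the protocols of the labels describe lentiviral shRNAs with puromycin selection without saying which of these samples received them. The text on the design speaks of 2 EP300 shRNAs and triplicates, whereas 2 libraries per group were analysed here. EP300 itself had 1485 and 1426 counts in libraries labelled Bromo+/-, against 1113 and 1281 in the controls, and it was higher in libraries labelled Bromo+/- (log2 fold change 0.19, SE 0.06, adjusted p = 0.00701, edgeR), so its level does not mark those libraries as a knockdown. Which change the label stands for cannot be read from gene counts. Nothing in the labels says that the libraries of a group came from separate cultures, and a number shared within each group's column names leaves it unknown whether they came from a single clone, so the p-values rest on the spread of these libraries alone, which may be technical.

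Mitochondrial DNA is a small circle whose strands are called heavy and light. Each is transcribed into long precursors, from which the tRNAs are cut out, releasing the rRNAs and mRNAs that lie between them. The rRNAs and most mRNAs then receive short poly(A) tails, which in several mRNAs also complete the stop codon. The 13 mRNAs encode core subunits of respiratory complexes I, III, IV and V, and the rRNAs and tRNAs serve the ribosomes that translate them. Of these genes 28 lay on the plus strand, called heavy-strand genes here because the heavy strand is their template, and 9 lay on the minus strand, called light-strand genes. The light-strand genes were 8 tRNAs and a single mRNA, MT-ND6, which encodes a subunit of complex I. The libraries were made with a poly(A)-selecting kit, and background knowledge holds that human MT-ND6 mRNA carries little or no poly(A) tail and that mature tRNAs carry none.

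The annotated ends of these mRNAs are shown because poly(A) tails bear both on how the transcripts mature and on how this kit captures them. Coordinates are those of the deposited table (GRCh38, chromosome MT), which equal GENCODE release 29 for all 37 genes, and sequences are the GENCODE release 29 transcripts, written 5′ to 3′. Of the 13 mRNAs 6 end within a stop codon, with only T or TA of it encoded, and 7 have a complete stop codon. MT-ND5 and MT-ND6 are annotated as meeting tail to tail on opposite strands, though MT-ND5 mRNA is known to run past its stop codon. The last 21 annotated bases of the 6 incomplete mRNAs, and of MT-ND5 and MT-ND6, are as follows, with encoded stop bases in capitals.
MT-ND1: cagcattccccctcaaaccTA
MT-ND2: cttttatactaataatcttaT
MT-CO3: ccatctattgatgagggtctT
MT-ND3: aaggattagactgaaccgaaT
MT-ND4: tcattaccgggttttcctctT
MT-CYB: acaaaatactcaaatgggccT
MT-ND5: accctactcctaatcacaTAA
MT-ND6: gagattgctcgggggaatAGG

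A pair of complex V genes with overlapping reading frames, MT-ATP8 and MT-ATP6, shares 46 bases (MT:8527-8572). Another pair of genes, MT-ND4L and MT-ND4, shares 7 (MT:10760-10766). The shared stretches are shown with the start codon of the downstream gene and the stop codon of the upstream gene in capitals, since a read that falls on them cannot be given to either gene alone.
MT-ATP8 and MT-ATP6: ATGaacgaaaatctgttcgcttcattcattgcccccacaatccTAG
MT-ND4L and MT-ND4: ATGcTAA

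Libraries held 11975396 and 10953756 counts in those labelled Bromo+/- and 10835237 and 11884715 in the controls. Of the 13179 genes with enough counts to be tested, 53.5% differed between the groups (3485 higher and 3570 lower in libraries labelled Bromo+/-), and the values of the groups did not overlap for 75.2%. The labelled cell type was checked against 8 mammary epithelial genes, all of which were lower in libraries labelled Bromo+/-. KRT14 had 0 counts in both libraries labelled Bromo+/-, against 74 and 88 in the controls, and CDH1 had 32 and 28 in libraries labelled Bromo+/-, against 4244 and 4814 in the controls. All 4 mesenchymal genes listed, VIM, FN1, CDH2 and ZEB1, were higher. The defining markers of leukocytes (PTPRC, CD3E) and of fat cells (ADIPOQ) had at most 1 count in any library, as did VWF of endothelium, while PECAM1 had 21 to 39 counts and PLIN1 had 4 to 8. Whether these differences play a part in the mitochondrial values was not tested, and in bulk RNA a change in the cells' makeup and a change in RNA per cell cannot be told apart. Mitochondrial DNA copies were not measured.

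Mitochondrial genes took 5.05% and 5.18% of all counts in libraries labelled Bromo+/-, against 4.32% and 4.21% in the controls. The means were 5.11% ± 0.0946 and 4.27% ± 0.0769 (SD, n = 2 each), a difference of 0.848 percentage points, and the groups did not overlap. The exact permutation test over samples (two-sided) gave p = 0.333, the smallest value that 2 libraries against 2 can give, so no such share can pass a threshold of 0.05 in this design. These shares are relative to library size alone, a scale on which the median log2 fold change of all tested genes was 0.09. The higher mitochondrial share was not evenly spread over the kinds of transcript. The rRNAs made up 6.59% and 6.71% of mitochondrial counts in libraries labelled Bromo+/-, against 4.79% and 4.78% in the controls. The mRNAs made up 93.3% and 93.2% in libraries labelled Bromo+/-, against 95.1% in both controls. Light-strand genes made up 1.17% and 1.23% in libraries labelled Bromo+/-, against 1.46% and 1.56% in the controls, a ratio of 0.796. Of these light-strand counts MT-ND6 held 6631 of 7079 and 6530 of 6979 in libraries labelled Bromo+/-. In the controls it held 6509 of 6842 and 7400 of 7786. The light-strand tRNAs together held 448 and 449 counts in libraries labelled Bromo+/-, against 333 and 386 in the controls. The tRNAs of both strands took 0.103% and 0.106% in libraries labelled Bromo+/-, against 0.0955% and 0.104% in the controls, and these ranges overlapped.

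**Figure D1:**
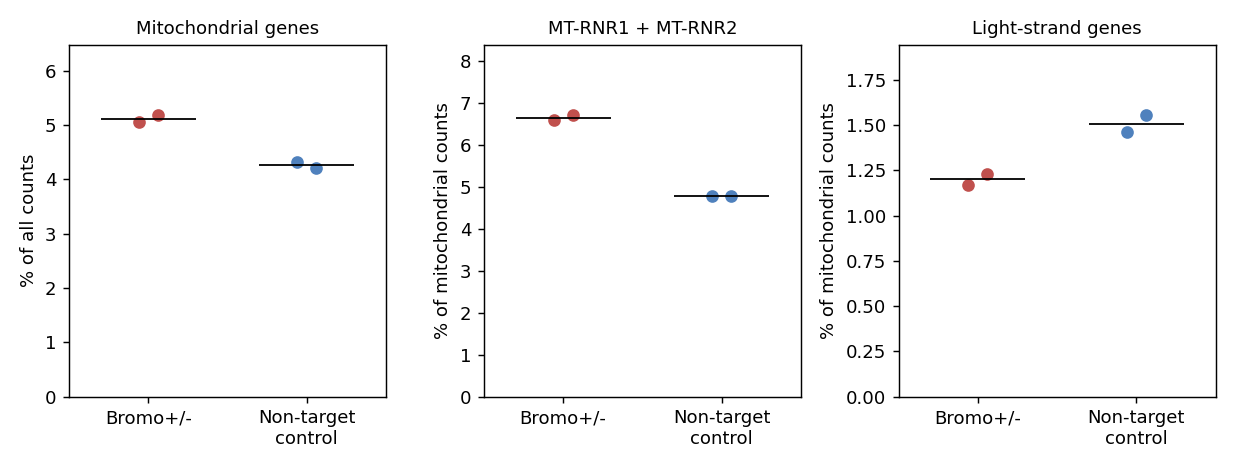
Each point is 1 library and each line a group mean (n = 2 per group). The left panel gives mitochondrial genes as % of all counts, the middle panel both rRNA genes as % of mitochondrial counts, and the right panel the 9 light-strand genes as % of mitochondrial counts, all on axes that start at 0. Most of the light-strand counts are those of MT-ND6. Libraries labelled Bromo+/- lie above the controls in the left and middle panels (5.11% against 4.27%, and 6.65% against 4.79%) and below them in the right panel (a difference of -0.308 percentage points).

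Values per gene are given as scaled CPM (counts relative to library size, with TMM scaling) and as log2 fold changes, Bromo+/- over control, each with a standard error (SE), from edgeR's quasi-likelihood test across all genes with Benjamini-Hochberg adjustment. Of the 37 mitochondrial genes 23 passed the filter on low counts, namely all 13 mRNAs, both rRNAs and 8 tRNAs. Past an adjusted p of 0.05, 9 were higher in libraries labelled Bromo+/-, against 26.4% of all tested genes, and 2 were lower, against 27.1%. These 11 are 47.8% of the 23, against 53.5% of all tested genes, so the share called among mitochondrial genes was near that background. Their groups did not overlap for 16 of 23, against 75.2% of all tested genes. The median log2 fold change was 0.13 over the 23 and 0.01 over all genes tested. Of the 11 calls 5 held under all 14 alternatives to the scaling, filter, test, block and libraries, namely MT-RNR1, MT-RNR2, MT-ND1, MT-CO3 and MT-CYB. With library size as the only scaling, 5 more genes were higher, namely MT-ND2 (adjusted p = 0.00035), MT-ATP6 (0.00195), MT-ND4L (0.000836), MT-TC (0.0137) and MT-TY (0.0267), and neither MT-ND5 nor MT-ND6 was lower. Counts of lower genes rested on single libraries, with 1 lower without Bromo+/- replicate 1 or control replicate 1 and 0 without control replicate 2.

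Both rRNAs were higher in libraries labelled Bromo+/-. MT-RNR2, the RNA of the large ribosomal subunit (MT:1671-3229), stood at 2651 and 2766 CPM in libraries labelled Bromo+/-, against 1661 and 1616 CPM in the controls. Both libraries labelled Bromo+/- were clearly above both controls, with a log2 fold change of 0.73 (adjusted p = 2.17e-32, edgeR, with SE 0.05). MT-RNR1, the RNA of the small subunit (MT:648-1601), stood at 595 and 609.5 CPM in libraries labelled Bromo+/- and at 481 and 454 CPM in the controls. This rise was smaller, at 0.37 on the log2 scale (adjusted p = 5.14e-11, edgeR, with SE 0.05). The rRNAs are neighbours on the same precursor with only MT-TV between them, yet MT-RNR2 had 446% and 454% of the counts of MT-RNR1 in libraries labelled Bromo+/-, against 345% and 356% in the controls. The mature rRNAs carry very short tails, so their counts in a poly(A)-selected library reach only a part of these RNAs, and the tail lengths were not measured.

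The rise continued into the genes just downstream of MT-RNR2. MT-TL1, a leucine tRNA (MT:3230-3304), lies between MT-RNR2 and MT-ND1 and holds the binding site of MTERF1, a factor that stops transcription there. It is shown whole because it is the only tRNA that passed the threshold.
MT-TL1: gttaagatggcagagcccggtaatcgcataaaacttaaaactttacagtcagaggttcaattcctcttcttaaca
It had 31 and 35 counts in libraries labelled Bromo+/-, against 11 and 17 in the controls, with a log2 fold change of 1.13 (adjusted p = 0.00133, edgeR, with SE 0.32), and it did not pass with DESeq2 (Wald, adjusted p = 0.0775, and 0.000626 to 0.0775 over the alternatives). Gene counts do not separate the mature tRNA from precursor RNA that still holds it. MT-ND1, a core subunit of complex I (MT:3307-4262), stood at 1211 and 1142 CPM in libraries labelled Bromo+/-, against 740 and 693 CPM in the controls. Its log2 fold change was 0.72 (adjusted p = 4.50e-32, edgeR, with SE 0.05), close to that of MT-RNR2. The next mRNA along the precursor, MT-ND2, also of complex I (MT:4470-5511), stood at 2364 and 2483 CPM in libraries labelled Bromo+/-, against 2306 and 2190 CPM in the controls, with a log2 fold change of 0.11 (SE 0.05) that did not pass (adjusted p = 0.0650, edgeR). MT-ND1 had 51.2% and 46.0% of the counts of MT-ND2 in libraries labelled Bromo+/-, against 32.1% and 31.6% in the controls.

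**Figure D2:**
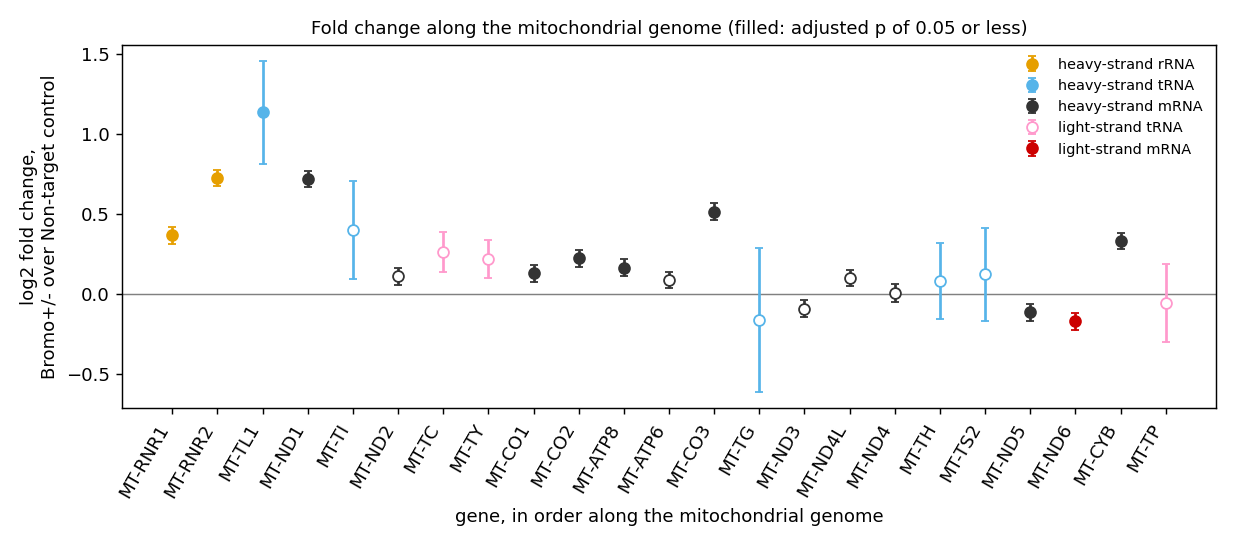
The 23 tested mitochondrial genes are placed in their order along the mitochondrial genome, and the vertical axis gives the log2 fold change of Bromo+/- over control with its SE. Colours mark the kind of RNA and the strand, and filled points passed an adjusted p of 0.05. The run of MT-RNR1, MT-RNR2, MT-TL1 and MT-ND1 lies at 0.37 to 1.13, MT-CO3 and MT-CYB stand at 0.51 and 0.33, and MT-ND5 and MT-ND6 lie below 0.

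Complex IV, cytochrome c oxidase, has 3 mitochondrially encoded subunits, which form its catalytic core. All 3 were higher in libraries labelled Bromo+/-, by unequal amounts, though MT-CO1 and MT-CO2 did not pass relative to the mitochondrial sum, where MT-CO1 was at -0.05. MT-CO3 (MT:9207-9990) stood at 5866 and 5878 CPM in libraries labelled Bromo+/-, against 4254 and 3970 CPM in the controls. It rose by 0.51 on the log2 scale (adjusted p = 3.49e-18, edgeR, with SE 0.05). MT-CO2 (MT:7586-8269) stood at 5569 and 5755 CPM in libraries labelled Bromo+/-, against 4983 and 4722 CPM in the controls, which gave a log2 fold change of 0.22 (adjusted p = 0.000116, edgeR, with SE 0.05). That call ended without control replicate 2 (adjusted p = 0.0651, edgeR). MT-CO1 (MT:5904-7445), the subunit that binds oxygen, stood at 8394 and 8317 CPM in libraries labelled Bromo+/-, against 7714 and 7566 CPM in the controls. Its groups did not overlap, but its log2 fold change of 0.13 (adjusted p = 0.0329, edgeR, with SE 0.05) no longer passed when any single library was left out (adjusted p of 0.0501 to 0.297, edgeR).

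The subunits of complex V, ATP synthase, lie just upstream of MT-CO3 and share its precursor. MT-ATP8 (MT:8366-8572) stood at 734 and 764 CPM in libraries labelled Bromo+/-, against 679 and 659 CPM in the controls, which gave a log2 fold change of 0.16 (adjusted p = 0.00352, edgeR, with SE 0.05). That call ended without either control library (adjusted p = 0.0523 without replicate 1 and 0.152 without replicate 2, edgeR) and relative to the mitochondrial sum (0.832), where the value was -0.01. MT-ATP6 (MT:8527-9207), which encodes the channel subunit, stood at 3703 and 3971 CPM in libraries labelled Bromo+/- and at 3719 and 3517 CPM in the controls. These ranges overlapped, and its log2 fold change of 0.08 did not pass (adjusted p = 0.164, edgeR, with SE 0.05). MT-CO3 and MT-ATP6 overlap by a single base, yet MT-CO3 had 158% and 148% of the counts of MT-ATP6 in libraries labelled Bromo+/-, against 114% and 113% in the controls. On the other side of MT-CO3, MT-ND3 had 12.5% and 12.4% of its counts in libraries labelled Bromo+/-, against 18.7% and 19.2% in the controls.

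MT-CYB, cytochrome b, is the only subunit of complex III encoded in the mitochondrion (MT:14747-15887). It stood at 2941 and 2878 CPM in libraries labelled Bromo+/-, against 2381 and 2252 CPM in the controls. Both libraries labelled Bromo+/- were above both controls, with a log2 fold change of 0.33 (adjusted p = 4.79e-09, edgeR, with SE 0.05).

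The other complex I mRNAs did not share the rise of MT-ND1. MT-ND4 (MT:10760-12137), the most counted mitochondrial mRNA, stood at 10027 and 10418 CPM in libraries labelled Bromo+/- and at 10322 and 10062 CPM in the controls, overlapping ranges with a log2 fold change of 0.00 (adjusted p = 0.954, edgeR, with SE 0.05). MT-ND4L (MT:10470-10766) stood at 1134 and 1071 CPM in libraries labelled Bromo+/- and at 999 and 1061 CPM in the controls (log2 fold change 0.10, adjusted p = 0.0953, edgeR). MT-ND3 (MT:10059-10404) stood at 734 and 728 CPM in libraries labelled Bromo+/- and at 797 and 763 CPM in the controls (log2 fold change -0.09, adjusted p = 0.111, edgeR). MT-ND5 (MT:12337-14148) stood at 2755 and 2862 CPM in libraries labelled Bromo+/-, below the 3017 and 3074 CPM of the controls. Its log2 fold change was -0.12 (adjusted p = 0.0460, edgeR, with SE 0.05), a call that ended without Bromo+/- replicate 1 and without either control (adjusted p of 0.157, 0.165 and 0.284, edgeR), and with library size as the only scaling (0.587).

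**Figure D3:**
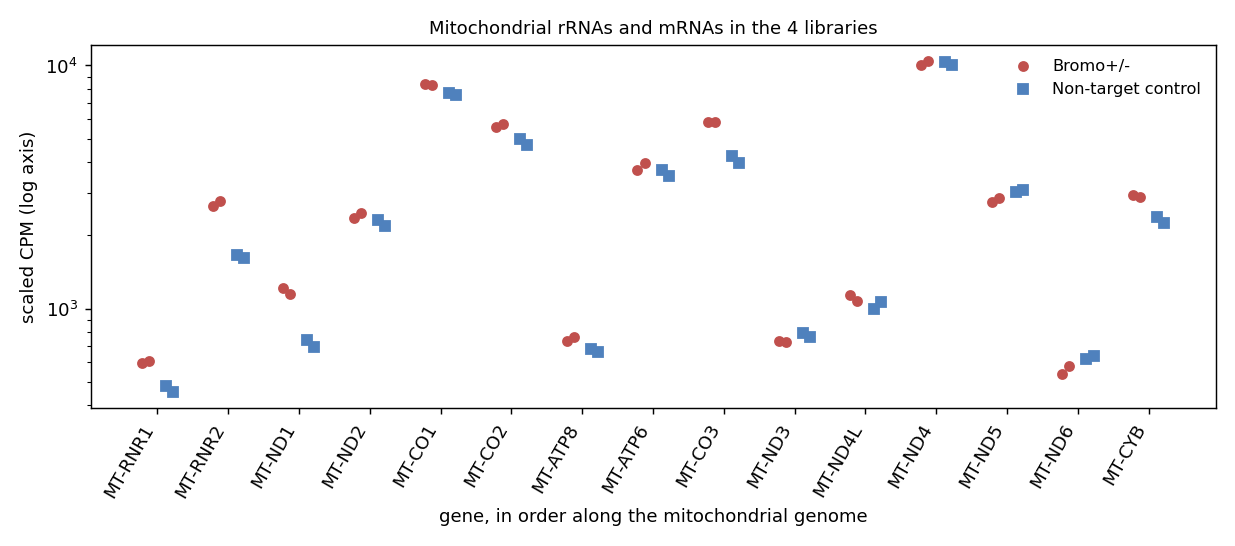
The vertical axis is scaled CPM on a log scale, and the 15 mitochondrial rRNAs and mRNAs run in their order along the genome. Circles are the 2 libraries labelled Bromo+/- and squares the 2 controls. The circles of MT-RNR2, MT-ND1 and MT-CO3 stand clear above the squares, those of MT-ND4 and MT-ATP6 overlap them, and those of MT-ND5 and MT-ND6 lie below.

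MT-ND6, the light-strand mRNA (MT:14149-14673), stood at 540 and 578 CPM in libraries labelled Bromo+/-, against 622 and 640 CPM in the controls. Both libraries labelled Bromo+/- were below both controls, with a log2 fold change of -0.17 (adjusted p = 0.00195, edgeR, with SE 0.05), and the call ended without control replicate 2 (adjusted p = 0.0913, edgeR) and with library size as the only scaling (0.116). Of the 12 heavy-strand mRNAs 6 were higher and 1, MT-ND5, was lower, with a median log2 fold change of 0.12. These calls are 58.3% of the heavy-strand mRNAs, near the 53.5% called among all tested genes. Relative to the sum of all mitochondrial counts in each library, MT-ND6 had a log2 fold change of -0.35 (adjusted p = 4.19e-10, edgeR, with SE 0.05), and MT-ND5 stood at -0.30, MT-ND3 at -0.27 and MT-ND4 at -0.17. The difference between these mRNAs was not tested. That scale moves the median of all genes to -0.17, and on it 6 mitochondrial genes were higher and 4 lower, against 16.0% higher and 43.9% lower over all tested genes, and MT-ND1, MT-RNR2 and MT-CO3 were still higher, at 0.54, 0.55 and 0.34.

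The reads behind MT-ND6 cannot be assigned to a strand with this table. Of 745 genes that lie wholly within exons of a gene on the other strand, 0 had a count in any library, while 32.1% of 10270 long non-coding RNA genes without any overlap had counts. A count that ignores strand and leaves out reads on overlapping genes gives 0 for such genes, and the strand setting is not stated in the labels. MT-ND5 mRNA is known to run past its stop codon across the stretch opposite MT-ND6, and without strand such reads are counted as MT-ND6. MT-ND6 had 19.6% and 20.2% of the counts of MT-ND5 in libraries labelled Bromo+/-, against 20.6% and 20.8% in the controls, a ratio of 0.961 between the groups. Which part of the MT-ND6 value is light-strand RNA was not tested, and the heavy and light comparison here is one of annotated genes, not of stranded reads. The sequences themselves differ by strand: MT-ND6 is 35.6% G and 7.05% C, while the 12 heavy-strand mRNAs are 6.28% to 16.2% G and 29.5% to 36.0% C.

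Most tRNA genes had few counts. Of the 22, 5 had none in any library (MT-TQ, MT-TA, MT-TN, MT-TS1 and MT-TK), 5 had 1 to 9 over the 4 libraries, and 12 had at least 10. A count of 0 allows up to 0.251 to 0.277 CPM per library, counting error only. With 59 to 75 bases and no tail, mature tRNAs are poorly sampled by this kind of library. Of the 5 without counts 4 are light-strand genes, and the tRNAs with most counts are light-strand genes as well. MT-TC, the cysteine tRNA, had 193 and 192 counts in libraries labelled Bromo+/-, against 146 and 154 in the controls. MT-TY, the tyrosine tRNA, had 212 and 209 in libraries labelled Bromo+/-, against 151 and 188 in the controls. Together they held 65.0% and 66.9% of all tRNA counts in libraries labelled Bromo+/-, against 66.4% and 65.5% in the controls. Neither passed the threshold (log2 fold change 0.26 for MT-TC and 0.22 for MT-TY, adjusted p = 0.0664 and 0.117, edgeR), although their groups did not overlap.

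MT-TC and MT-TY lie in a cluster with MT-TA and MT-TN between MT-ND2 and MT-CO1, all 4 on the light strand and all antisense to the heavy-strand precursor. Their sequences are shown to set the counted pair beside the uncounted pair. MT-TY ends on the base at which MT-TC starts, given in capitals in both (MT:5826-5891 and MT:5761-5826, minus strand), and MT-TN and MT-TA (MT:5657-5729 and MT:5587-5655, minus strand) follow them.
MT-TY: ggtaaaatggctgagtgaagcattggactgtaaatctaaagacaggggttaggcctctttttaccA
MT-TC: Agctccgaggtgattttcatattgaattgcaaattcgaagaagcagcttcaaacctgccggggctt
MT-TA: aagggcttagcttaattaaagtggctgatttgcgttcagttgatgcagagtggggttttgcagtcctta
MT-TN: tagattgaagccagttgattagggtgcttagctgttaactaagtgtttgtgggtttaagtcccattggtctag
The stretch around MT-TN that belongs to no other gene is 105 bases long, against 77 bases for MT-TA and MT-TY and 96 for MT-TC. The remaining tRNAs with at least 10 counts were MT-TI, with 39 and 19 counts in libraries labelled Bromo+/-, against 14 and 27 in the controls, MT-TH with 49 and 38 in libraries labelled Bromo+/-, against 43 and 34 in the controls, MT-TP with 37 and 42 in libraries labelled Bromo+/-, against 35 and 42 in the controls, and MT-TS2 with 30 and 27 in libraries labelled Bromo+/-, against 21 and 28 in the controls. MT-TG had 9 and 11 counts in libraries labelled Bromo+/-, against 10 and 11 in the controls. These 5 were tested, and their log2 fold changes lay between -0.16 and 0.40 with adjusted p of 0.272 to 0.858 (edgeR). MT-TL2 had 4 and 3 counts in libraries labelled Bromo+/- and 7 in each control, MT-TE had 6 in each library labelled Bromo+/- and 1 and 2 in the controls, MT-TM had 4 and 6 in libraries labelled Bromo+/-, against 1 and 2 in the controls, and MT-TT had 0 and 4 in libraries labelled Bromo+/-, against 2 and 4 in the controls. These were too few to be tested.

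Levels can be compared between genes only per length, here as scaled CPM per kilobase. The levels of the 13 mRNAs per kilobase spanned 7.77-fold from the highest to the lowest mRNA in libraries labelled Bromo+/- and 9.87-fold in the controls. In the libraries labelled Bromo+/- the order was led by MT-CO2 (8278 ± 193 CPM per kilobase, SD, n = 2), MT-CO3 (7490 ± 10.2) and MT-ND4 (7418 ± 201). In the controls it was led by MT-ND4 (7396 ± 134), MT-CO2 (7094 ± 269), MT-ATP6 (5312 ± 210) and MT-CO3 (5245 ± 256). At the lower end stood MT-ND5 (1550.02 ± 41.8), MT-ND1 (1231 ± 50.9) and MT-ND6 (1066 ± 51.1) in libraries labelled Bromo+/-, and MT-ND5 (1681 ± 22.1), MT-ND6 (1201 ± 24.5) and MT-ND1 (749 ± 34.4) in the controls. Neighbours in this order whose libraries overlapped were MT-CO3 with MT-ND4, MT-ATP6 with MT-CO1 and MT-ND4L with MT-ATP8 in libraries labelled Bromo+/-, and MT-ATP6 with MT-CO3 and MT-ND3 with MT-ND2 in the controls. MT-ND4L and MT-ND4 are read from a shared mRNA, and the per-kilobase level of MT-ND4L was lower in every library. Reads on their 7 shared bases cannot be given to either gene alone, and MT-ND4L has 297 bases against 1378 of MT-ND4. Levels per kilobase were not corrected for such reads, here or for MT-ATP8 and MT-ATP6. Their part in the difference was not tested. Levels were also not corrected for reads shared with nuclear copies of mitochondrial DNA, described below, and the part of those reads in the order was not tested.

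**Figure D4:**
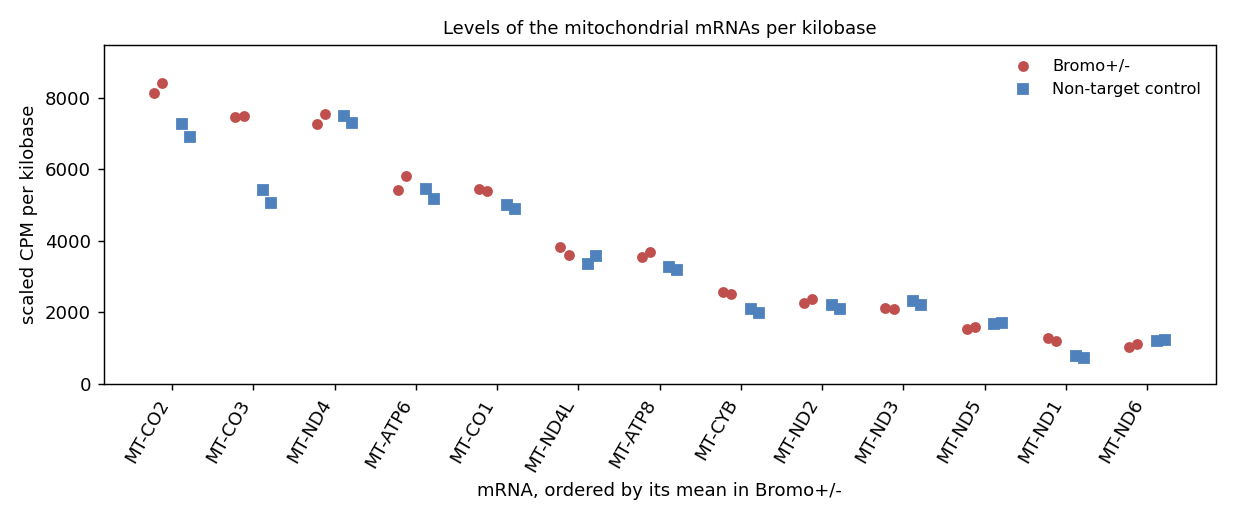
The vertical axis is scaled CPM per kilobase from 0, and the 13 mRNAs are ordered by their mean in libraries labelled Bromo+/-. Circles are the 2 libraries labelled Bromo+/- and squares the 2 controls. MT-CO3 is level with MT-ND4 in libraries labelled Bromo+/- (7490 and 7418) but not in the controls (5245 and 7396).

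Neither position nor the kind of stop codon ordered the changes fully. Over the 14 heavy-strand rRNAs and mRNAs, the log2 fold change fell with distance along the genome with a Spearman rho of -0.600, given as a description over genes that share precursors and libraries, with MT-CO3 and MT-CYB as departures from it. The rho was 0.0769 with length, 0.411 with GC content and -0.266 with the control level. Of the 6 mRNAs with an incomplete stop codon 3 were higher and none lower (median log2 fold change 0.22). Of the 7 with a complete one 3 were higher and 2 lower (median 0.10). Over all tested genes 26.4% were higher and 27.1% lower.

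Nuclear copies of mitochondrial DNA are pseudogenes so alike in sequence that reads may be split between them and the mitochondrial genes. By symbol, 417 such rows were in the table and 50 had any count. They summed to 1.08% and 1.10% of the mitochondrial counts in libraries labelled Bromo+/- and 1.12% in both controls. Of the listed copies, MTATP6P1 had 7.70% and 7.54% of the counts of MT-ATP6 in libraries labelled Bromo+/-, against 7.16% and 7.23% in the controls. MTND2P28 had 3.14% and 3.07% of the counts of MT-ND2 in libraries labelled Bromo+/-, against 2.79% and 2.88% in the controls. MTND4P12 had 1.39% and 1.35% of those of MT-ND4 in libraries labelled Bromo+/-, against 1.44% in both controls. MTCO1P12 had 103 and 101 counts in libraries labelled Bromo+/-, against 84 and 90 in the controls. Of the 5 copies tested MTATP6P1 (0.17), MTND2P28 (0.24) and MTRNR2L1 were higher, and MTND4P12 (-0.06) and MTCO1P12 (0.13) did not pass. The share called was 60% of these 5, near the 53.5% of all tested genes, of which 26.4% were higher. MTRNR2L1, a copy of MT-RNR2, had 211 and 233 counts in libraries labelled Bromo+/-, against 95 and 88 in the controls, which gave a log2 fold change of 1.18 (adjusted p = 6.55e-15, edgeR, with SE 0.14) in the same direction as MT-RNR2. MTCO2P22 had 22 and 20 counts in libraries labelled Bromo+/-, against 9 and 20 in the controls. The other 6 with at least 10 counts in all, MTCO2P12, MTCO3P12, MTND6P4, MTCO1P40, MTND5P11 and MTRNR2L12, had at most 11 in any library. How many reads are missing because they match several places equally was not given. RNAs without a poly(A) tail were near 0: of 21 listed, 12 had no count in any library, and RN7SL2, the most counted, had 46 and 36 counts in libraries labelled Bromo+/-, against 36 and 59 in the controls. SNORA73B had 24 and 32 counts in libraries labelled Bromo+/-, against 28 and 41 in the controls. SNORD3A and SCARNA7, next in order, had at most 3 in any library. RN7SL2 (-0.31) and SNORA73B (-0.39) were tested and neither passed (adjusted p = 0.263 and 0.216, edgeR). Whether the 0 counts in this list come from the poly(A) selection or from the way reads were counted was not tested.

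The nuclear genes that make, process and use these transcripts were read from 12 lists with 240 genes, of which 236 were tested. In all 29 were higher and 51 lower in libraries labelled Bromo+/-, 33.9% called against 53.5% of all tested genes, with a median log2 fold change of -0.02. Under library size as the only scaling the split was 61 higher and 25 lower, and with the upper quartile it was 46 and 32, beside 4433 higher and 2794 lower and 4133 higher and 2985 lower over all genes. The direction of the partners as a whole turned with the scaling. Without control replicate 1 the split was 24 higher and 26 lower, and without control replicate 2 it was 14 and 36. Counts in the lists below also moved when a library was left out, by more than 1.5 times in at least 1 direction for each of the 12 lists.

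Among 9 genes of mitochondrial transcription 2 were higher and 2 lower, beside 26.4% higher and 27.1% lower over all tested genes. With library size alone 3 were higher and 0 lower, and by the DESeq2 Wald test 1 was higher and 0 lower, so the lower calls of POLRMT and TFB1M ended under both. POLRMT, the mitochondrial RNA polymerase, fell to 48.1 ± 5.33 CPM in libraries labelled Bromo+/-, against 57.6 ± 2.62 in the controls (log2 fold change -0.26, adjusted p = 0.00263, edgeR). TFB1M, an rRNA methyltransferase related to the transcription factors, also fell (-0.28), while MTERF2 (0.66) and MTERF3 (0.28), of the family of MTERF1, rose. TFAM, which packages mitochondrial DNA and starts transcription, stood at 124 ± 3.38 CPM in libraries labelled Bromo+/- and 121 ± 6.34 in the controls (log2 fold change 0.04, adjusted p = 0.652, edgeR). The initiation factor TFB2M (0.01) and the elongation factor TEFM (0.01) did not pass either. Of 18 genes of mitochondrial DNA replication and its nucleotide supply 4 were higher, among them RRM2B (0.82) and TK2 (0.68), which supply deoxynucleotides outside S phase, and 6 were lower, among them the ligase LIG3 (-0.33) and the nucleoid protein ATAD3A (-0.30), which turned to 5 higher and 2 lower with library size alone.

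Of 31 genes of RNA processing, polyadenylation and decay 2 were higher and 4 lower, both below the 26.4% and 27.1% of all tested genes. The split turned to 7 higher and 2 lower with library size alone and to 4 and 2 with the upper quartile. LRPPRC, which stabilises mitochondrial mRNAs and promotes their polyadenylation, rose to 373 ± 16.1 CPM in libraries labelled Bromo+/-, against 331 ± 1.22 in the controls (log2 fold change 0.17, adjusted p = 0.00255, edgeR). SLIRP, its partner, stood at -0.04 and did not pass (adjusted p = 0.649, edgeR). MTPAP, the poly(A) polymerase of mitochondria, fell by 0.19, only just past the threshold (adjusted p = 0.0434, edgeR). By the DESeq2 Wald test 2 genes of this list were higher and 2 lower. FASTKD2, which binds the large rRNA and aids its assembly, fell to 86.5 ± 2.20 CPM in libraries labelled Bromo+/-, against 118 ± 1.32 in the controls (log2 fold change -0.45). GRSF1, an RNA granule protein that binds G-rich RNA including that of MT-ND6, fell by 0.26, and TRMU, a tRNA-thiolating enzyme, rose by 0.25. The decay enzymes PNPT1 (-0.13) and SUPV3L1 (0.06), which remove antisense and surplus RNA, did not pass (adjusted p = 0.0840 and 0.522, edgeR).

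Among ribosomal proteins of the mitochondrion the lower calls were near the 27.1% lower over all tested genes. The higher calls were below the 26.4% higher over all tested genes in both subunits. With library size as the only scaling 6 small-subunit proteins were higher and 5 lower, and 4 large-subunit proteins were higher and 7 lower. Without control replicate 1, 4 small-subunit proteins were higher and 6 lower, and 2 large-subunit proteins higher and 6 lower. Of 28 tested proteins of the small subunit 9 were lower and 2 higher (median log2 fold change -0.09), and those with the smallest adjusted p were MRPS15 (-0.56), MRPS10 (-0.46), MRPS30 (-0.41) and MRPS34 (-0.31). Of 49 of the large subunit 14 were lower and 1 higher (median -0.10), and those with the smallest adjusted p were MRPL52 (-0.57), MRPL14 (-0.36), MRPL16 (-0.33) and MRPL41 (-0.27). Of 14 translation factors 4 were lower, among them the initiation factor MTIF2 (-0.35), the release factor MTRF1 (-0.55) and the recycling factor MRRF (-0.22), and 2 were higher, with the elongation factor TSFM at 0.31. The lower share was again near that of all genes, and the split turned to 5 higher and 2 lower with library size alone.

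Of 36 tested nuclear-encoded subunits of complex I 8 were higher and 5 lower, with NDUFS1 (0.26) of the matrix arm rising and NDUFAB1 (-0.30) and NDUFS4 (-0.32) falling. Both counts lay below the 26.4% higher and 27.1% lower of all tested genes. They were 15 and 2 with library size alone, 13 and 3 with the upper quartile, and 5 and 6 without Bromo+/- replicate 1. In complex IV 0 of 11 passed in either direction by edgeR's quasi-likelihood test, with 0 also at an unadjusted p of 0.05 and by DESeq2 (1 was lower without Bromo+/- replicate 1 and 1 higher without Bromo+/- replicate 2), and their log2 fold changes lay between -0.07 and 0.12. This rested on the scaling, as 2 were higher with the upper quartile and with library size alone, and 7 were lower relative to the mitochondrial sum. In complex III UQCRB (0.30) rose and the other 8 did not pass, and in complex II, which has no mitochondrially encoded subunit, SDHA (0.20) rose and the other 3 did not pass. With library size alone 3 were higher in each of these complexes. Of 17 in complex V 4 were higher and 2 lower. ATP5MC2, a subunit of the rotor ring, was at 0.79 (208 ± 9.52 CPM in libraries labelled Bromo+/-, against 120 ± 4.86 in the controls). ATP5F1A was at 0.21, ATP5PD at 0.23 and ATP5MK at -0.28. With library size alone 6 of complex V were higher and 1 lower. The share called was 35.3% in complex V, 11.1% in complex III and 25% in complex II, against 53.5% of all tested genes. Of 10 tested regulators of mitochondrial biogenesis 5 were lower, among them ESRRA (-0.50), NRIP1 (-0.52) and GABPB1 (-0.33), and 2 were higher, with TFE3 at 0.36. In all 70% of these regulators were called, against 53.5% of all tested genes. With library size alone 2 were higher and 4 lower, and by the DESeq2 Wald test 1 was higher and 4 lower.

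**Figure D5:**
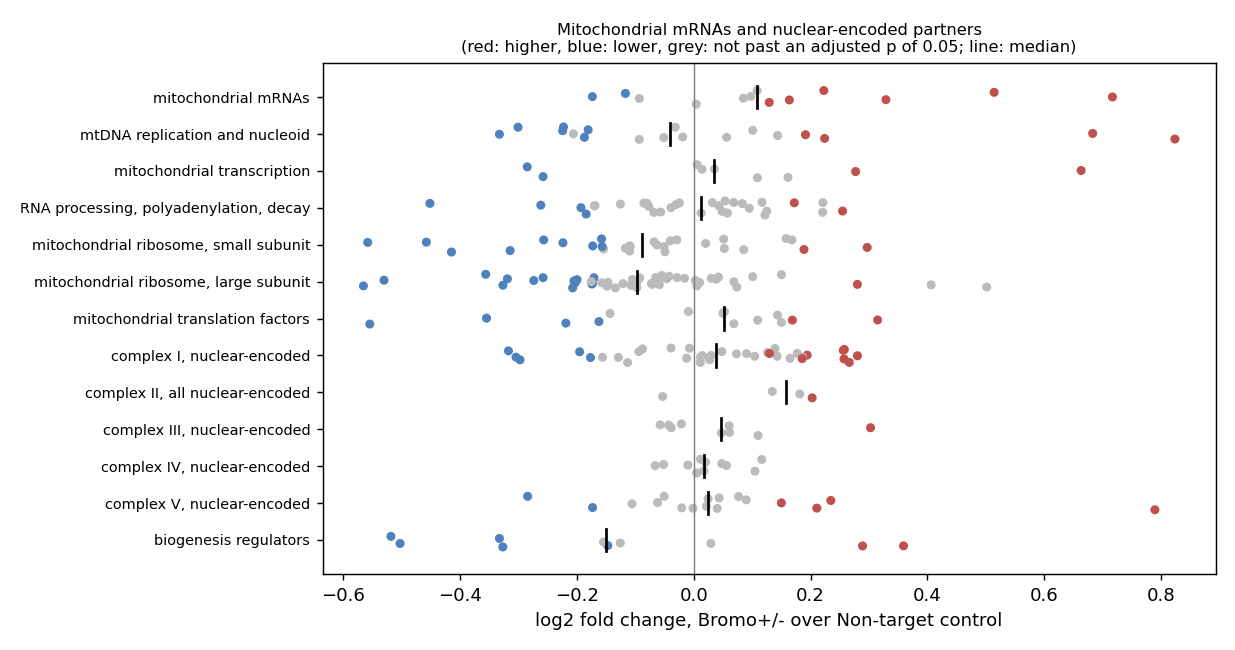
Each point is a tested gene, placed by its log2 fold change of Bromo+/- over control, in rows for the 13 mitochondrial mRNAs and the 12 nuclear lists, with a black line at the median. Red points were higher, blue points lower and grey points not past an adjusted p of 0.05. The medians of the ribosomal protein rows lie at -0.09 and -0.10 and that of the mitochondrial mRNAs at 0.11, and all points of the complex IV row are grey.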

How the data were processed

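The deposited table holds whole-number read counts for each Ensembl gene, with no normalization by the authors. STAR, featureCounts 1.5.2 and GRCh38 are named, per the submitters' processing notes, and a stranded mRNA kit, per the labels' protocols. Strand setting, annotation release and the treatment of multiply mapping reads: not given in the sources used here. Columns named Br and WT were matched to the Bromo+/- and control samples by name and replicate number, and the WT columns were taken as the non-target control because no other group remained.

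The test was edgeR 4.0.16 in R 4.3.3 (robust quasi-likelihood test on all 13179 genes kept by filterByExpr at a minimum count of 10, trimmed mean of M values, 2 residual degrees of freedom, Benjamini-Hochberg adjustment at 0.05) and DESeq2 1.42.0 as an alternative. The common biological coefficient of variation was 3.52%. A chi-square statistic per degree of freedom was 2.58 within Bromo+/- and 1.61 within the controls, above sampling noise in both. Members named are those with at least 10 counts over the 4 libraries, with the others given by count. Of each nuclear list up to 4 genes with the smallest adjusted p and 10 preset genes are named, except 1 gene that is not reported here. The members and lists were chosen with earlier results of these data known. All 12 nuclear copies with at least 10 counts are named, 2 of them from outside the fixed list.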

Additional observations from a re-analysis of the deposited data

How the results depend on the processing

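The 14 alternatives changed the scaling, filter, test, replicate block or libraries. Of 316 values of single members, 261 kept direction and side of the threshold. Counts moved most with the scaling. With upper quartile scaling 14 mitochondrial genes were higher and 1 lower, and 46 nuclear partners higher and 32 lower. With library size alone 14 and 0 mitochondrial genes and 61 and 25 partners were called, and the median of all genes moved to 0.09. Relative to the mitochondrial sum, a scaling that moves the median of all genes to -0.17, 4 mitochondrial genes were lower, and 5 partners were higher and 127 lower. The stricter filter left 1 mitochondrial gene lower, and the DESeq2 Wald test called 28 partners lower. Leaving out 1 library gave 6 to 10 mitochondrial genes higher and 0 to 2 lower, and 14 to 36 partners higher and 26 to 51 lower. The 6 and the 0 came without control replicate 2. The fewest partners higher (14) came without control replicate 2, and the fewest lower (26) without control replicate 1. The cause was not tested, other than that fewer samples enter each such fit. The mitochondrial share stayed higher (0.781 to 0.915 percentage points) and the light-strand share, mostly MT-ND6, lower (-0.355 to -0.261) without any 1 library.

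Reversed log2 fold changes were as follows. Relative to the mitochondrial sum, MT-ND2 (-0.0695), MT-CO1 (-0.0486), MT-ATP8 (-0.0145), MT-ATP6 (-0.093), MT-ND4L (-0.0807), MT-ND4 (-0.174), MT-TH (-0.0995) and MT-TS2 (-0.0561) were below 0. MT-ND4 was at -0.00604 without the filter, and MT-TP at 0.000649 with upper quartile scaling and 0.0249 with library size alone. Leaving out 1 library turned MT-TI (-0.144 to 0.869), MT-TG (-0.375 to 0.0301), MT-ND4 (-0.0259 to 0.0302), MT-TH (-0.158 to 0.323), MT-TS2 (-0.00573 to 0.264) and MT-TP (-0.214 to 0.0889), none of which had passed. With the replicate block 10 mitochondrial genes were higher and 3 lower, and 35 and 55 partners. Same-numbered libraries shared no deviation (correlation 0.037 across genes) and no label pairs them. Of the tRNAs 14 were too sparse to test, and the part of depth in this was not tested.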
